A study of Mus musculus with 6 samples.

Results

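A set of 9 transcription factors that mark the step from a cortical neural stem cell to a neuron were followed in neural stem cells with and without Cre-mediated deletion of Phf2. They were Neurog1, Neurog2, Eomes, Hes6, Neurod1, Neurod4, Insm1, Tbr1 and Olig3, taken from the count table by gene symbol. All 9 were among the 24503 gene symbols of the count table. Of these 9, 7 had at least 1 count in any library and 2, Hes6 and Insm1, passed the filter on low counts that precedes testing. Neurog1 and Olig3 had 0 counts in all 6 libraries. Olig3, a factor of other regions of the neural tube, is the member not tied to cortex.

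RNA-seq was performed on primary mouse neural stem cells taken from embryonic cortex at E13.5, selected as neurospheres and then expanded on laminin with FGF and EGF. Both groups carried homozygous floxed Phf2 alleles (Phf2flox/flox). The WT group (n = 3 libraries) carried no Cre, and the KO group (n = 3) carried in addition the Nestin-Cre transgene, labelled B6.Cg-Tg(Nes-cre)1Kln/J, in which Nestin regulatory sequence drives Cre in neural progenitors. The question was which transcripts differ once Phf2, the gene of a Jumonji-family histone demethylase, is deleted. WT differs from KO in the presence of Cre as well as in Phf2, and the labels do not say whether libraries came from separate embryos or cultures. The p-values therefore cover the spread between these 6 libraries, which may be technical.

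In the developing cortex, radial glia produce neurons through intermediate progenitors. Proneural basic helix-loop-helix (bHLH) factors such as Neurog1 and Neurog2 start this step in dorsal progenitors by pairing with E proteins and binding E-box sequences, while Id and Hes proteins oppose them and keep cells in the stem state. Neurogenins act ahead of Eomes (also called Tbr2), Neurod1, Neurod4 and Hes6, and Tbr1 appears later, in postmitotic glutamatergic neurons. FGF and EGF favour self-renewal of cultured neural stem cells.

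Total counts per library ranged from 33413444 to 46890314. A floor of 3 counts in a library corresponded to 0.0636 to 0.0892 counts per 1000000 (CPM). The targeted gene, Phf2, averaged 92.3 ± 15.5 CPM across WT and 51.1 ± 4.56 CPM across KO libraries (SD, n = 3), and the groups did not overlap. Its log2 fold change was −0.84 ± 0.0743 (SE, adjusted p = 0.000123, edgeR) with the replicate number as a block and −0.85 (adjusted p = 0.182, edgeR) without it. The labels do not state the exons that Cre removes, so the remaining counts do not measure intact transcript. Libraries WT 1 and KO 1 stood apart from the other 4, as the values below show. KO 2 and KO 3 were the closest pair within a group, with 19.7% of 12816 genes beyond the 95% limit of counting noise, against 56.3% to 80.8% in the 5 other pairs. Of the markers that define the labelled cell type, all 12 neural stem genes were detected. Their means in WT included 4591 CPM for Vim, 1997 CPM for Fabp7, 1046 CPM for Nes and 466 CPM for Sox2. For the microglial list, 6 of 8 markers were at 0 in every library.

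The proneural and intermediate progenitor factors made up 0.00824% (KO 1) to 0.0190% (WT 3) of each library's counts, and Hes6 alone supplied 89.7% of the counts of all 9 genes. Levels between genes were compared as CPM per kilobase of exon. On that scale Hes6 averaged 71.3 CPM per kb over the 6 libraries (40.5 to 96.2) and Insm1 4.56 (3.69 to 5.76), so their ranges did not overlap. The next 5 members lay far lower and close together, with means of 0.0728 for Neurod1, 0.0416 for Tbr1, 0.0387 for Eomes, 0.0383 for Neurod4 and 0.0316 for Neurog2. Each neighbouring pair among these 5 overlapped over its libraries, so their order is not resolved.

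Set among 36 members, bHLH relatives, partners and inhibitors, Hes6 ranked 7 and Insm1 ranked 13 by mean CPM per kb. The ranks depend on the length used, which joins all annotated exons of a gene. It was 15529 bases for Tcf12 and 27382 for Tcf4, against 1808 for Hes6. Tcf12 and Tcf4 ranked 10 and 12, though their WT means of 564 and 465 CPM were above the 145 CPM of Hes6. Insm1 had rank 13 in each of the 6 libraries. Hes6 had rank 7 in the libraries numbered 2 and 3 but rank 3 in WT 1 and rank 5 in KO 1, where several inhibitors were lower. Olig1 and Olig2, bHLH factors of the oligodendrocyte lineage and ventral progenitors, ranked 1 and 2 at 1025 and 458 CPM per kb. The dorsal proneural factor Neurog2 lay among the 5 low members, with ranks of 19 to 25 by library, and Neurog1 had 0 counts. A total of 8 of the 36 genes were at 0 in every library, and besides Neurog1 and Olig3 these were Atoh1, Atoh7, Bhlhe23, Neurog3, Nhlh2 and Ptf1a. In bulk RNA, fewer cells expressing a gene and less RNA per cell cannot be told apart.

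**Figure D1:**
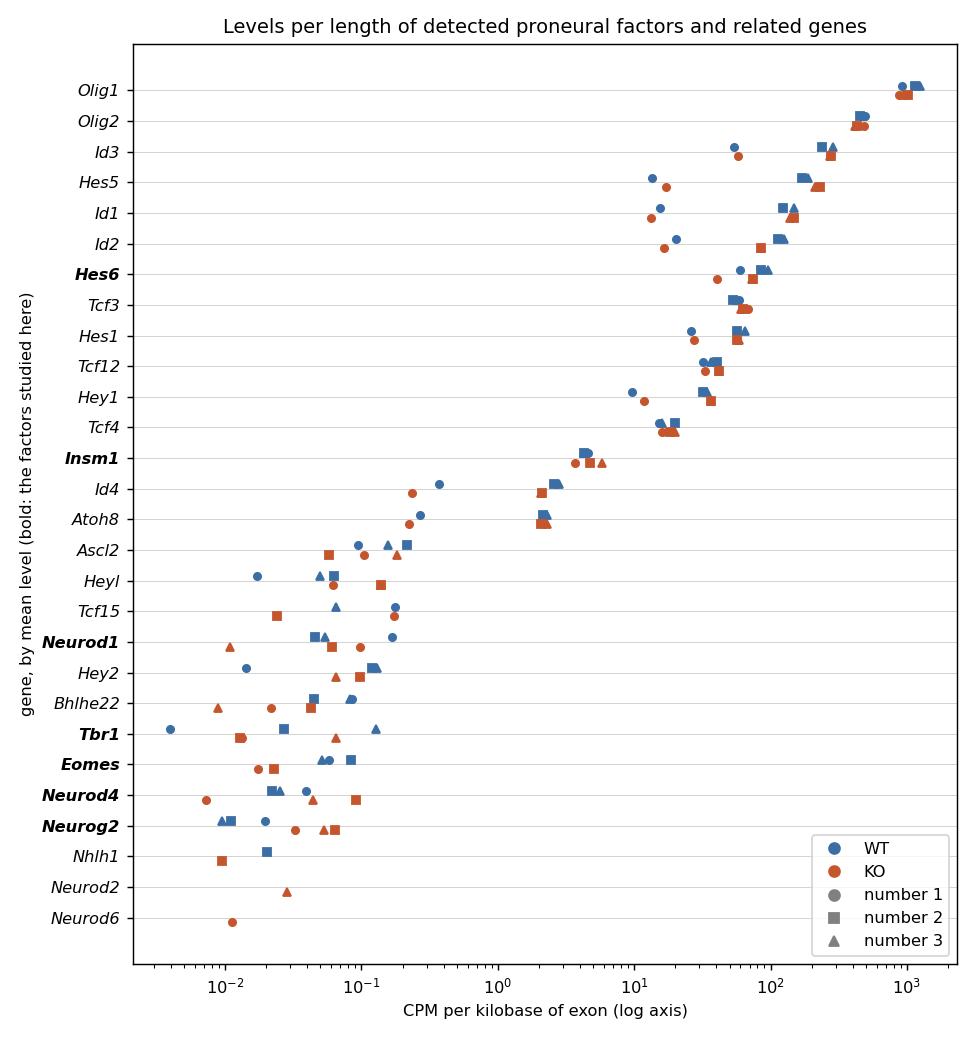
Levels of the proneural factors and related genes in CPM per kilobase of exon (log axis), with 1 point per library, WT in blue, KO in orange, the shape giving the replicate number and the 7 detected members in bold. Hes6 lies near the inhibitors, Insm1 averages 4.56 CPM per kb, and 5 other members lie below 0.2 CPM per kb. Values of 0 are not drawn on the log axis.

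Hes6 encodes a bHLH protein that, unlike Hes1 and Hes5, favours neuronal differentiation and counteracts Hes1. The gene lies on chromosome 1, 91411483 to 91414038, minus strand (GRCm38), with up to 4 exons. WT libraries 1 to 3 held 4940, 6161 and 8208 Hes6 counts, and KO libraries 1 to 3 held 3010, 5710 and 4439. In the same order these are 107, 153 and 174 CPM for WT, then 73.2, 135 and 132 CPM for KO. The groups overlapped, because KO 2 and KO 3 lay above WT 1. Within each replicate number the KO library was below its WT counterpart, with log2 ratios of KO to WT of −0.55, −0.18 and −0.40 for numbers 1, 2 and 3. Libraries numbered 1 were the lowest of both groups, with log2 ratios to the other libraries of −0.60 in WT and −0.86 in KO.

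Hes6 averaged 145 ± 34.0 CPM over the WT libraries, against 113 ± 34.7 CPM over the KO libraries (SD, n = 3). The log2 fold change without a block was −0.35 ± 0.284 (SE, Benjamini-Hochberg adjusted p = 0.999, edgeR's quasi-likelihood test). A block on the replicate number takes the gap shared by WT 1 and KO 1 out of the error, and in that fit Hes6 fell by 0.38 ± 0.0767 on the log2 scale (adjusted p = 0.0128, edgeR). Without the block 0 of the 2 tested members were called, where 0.0585% of the 13683 tested genes were called in either direction. With the block 1 of 2 was called, where 9.79% of tested genes were called and 6.46% were called lower in KO. A single call of 2 genes is not set apart from that background.

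The Hes6 call was not kept in either of 2 further fits. From numbers 2 and 3 alone the log2 fold change was −0.29 ± 0.0747 (adjusted p = 0.0824, edgeR). With KO 2 and KO 3 summed into 1 library and number 1 as the block it was −0.40 ± 0.0957 (adjusted p = 0.0526, edgeR). In the unblocked fits the value was −0.12 without KO 1 and −0.52 without WT 1. The value was negative in 16 of 16 alternatives, which draw on the same 6 libraries and are not independent.

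**Figure D2:**
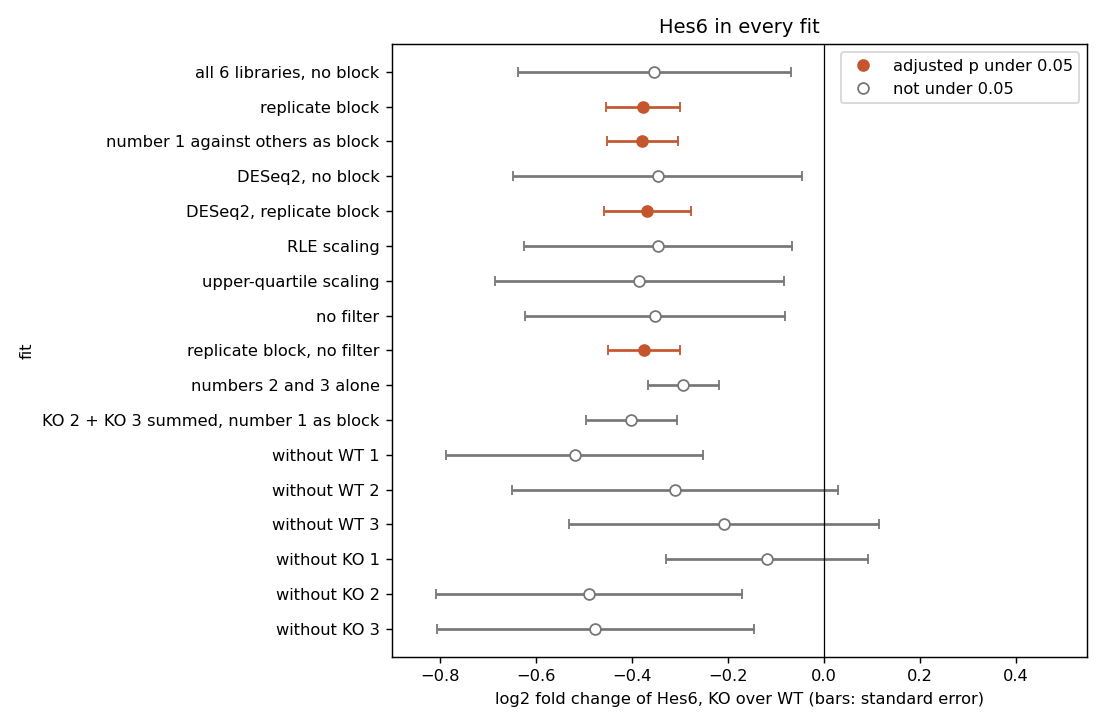
Log2 fold change of Hes6, KO over WT, in every fit, with bars of 1 standard error and filled points where the adjusted p was under 0.05. The values of all 17 fits lie below 0, and the 4 filled points are fits with a block, at −0.37 to −0.38.

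The promoter sequences of Hes6 and Eomes are shown because these were the member called with a block and the member with the most negative fold change. Both come from RefSeq on GRCm38.p6 and run 5′ to 3′ along the gene's strand, Hes6 (250 bases) up to its start and Eomes (247 bases) up to 3 bases before the start, where the RefSeq gene begins. Hes6 is at chr1:91413223-91413472 (minus strand) and Eomes at chr9:118477939-118478185 (plus strand). The Hes6 window lies inside the annotated span of the gene, 91411483 to 91414038, so it precedes an inner start. It is 1 of 2 RefSeq promoters of Hes6, and the other is not shown. Capitals mark the CAGCTG E-box in Hes6, and in both genes CCAAT, which reads ATTGG on the other strand, and TATANAA.
Hes6: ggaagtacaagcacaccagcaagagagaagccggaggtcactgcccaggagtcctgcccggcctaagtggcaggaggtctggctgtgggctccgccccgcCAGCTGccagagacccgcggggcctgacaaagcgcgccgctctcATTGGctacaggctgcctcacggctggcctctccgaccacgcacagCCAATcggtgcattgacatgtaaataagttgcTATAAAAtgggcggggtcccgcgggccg
Eomes: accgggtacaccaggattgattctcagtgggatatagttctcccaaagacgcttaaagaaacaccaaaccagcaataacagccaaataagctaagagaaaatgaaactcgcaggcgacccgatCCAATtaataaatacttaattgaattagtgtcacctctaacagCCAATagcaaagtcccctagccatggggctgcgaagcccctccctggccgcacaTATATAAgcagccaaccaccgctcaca

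In Hes6 the E-box, a match to CANNTG, began 150 bases before the start, ATTGG 106 bases, CCAAT 60 bases and TATAAAA 28 bases before it. In Eomes, CCAAT began 127 and 84 bases before the start and TATATAA 30 bases before it, with no CANNTG match. CCAAT and TATANAA were chosen after the letters had been seen. Both strands were searched for each motif, and CAGATG is itself a CANNTG. Across 32851 RefSeq promoters, 250 bases before the start of the transcript, 66.2% held CANNTG, 33.8% held CCAAT, 10.4% held TATANAA and 3.66% held both of the last pair. CAGATG, an E-box form bound by neurogenins and Neurod factors, was in 14.4% of promoters and in 0 of the 8 member promoters matched. CACNAG, an N-box form bound by Hes proteins, was in 36.7% of promoters and in 3 of 8 member promoters, those of Eomes, Hes6 and Neurod4. The letters describe these windows and show no binding.

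Insm1 encodes a zinc-finger repressor that promotes the formation of basal, that is intermediate, progenitors. It lies on chromosome 2, 146221921 to 146225020, plus strand, as 1 exon. WT libraries 1 to 3 held 655, 538 and 622 counts (14.2, 13.3 and 13.2 CPM), and KO libraries 1 to 3 held 470, 623 and 601 (11.4, 14.7 and 17.9 CPM), so the WT libraries lay within the range of the KO libraries. Insm1 averaged 13.6 ± 0.573 CPM over WT, against 14.7 ± 3.22 CPM over KO (SD, n = 3). The log2 fold change was 0.11 ± 0.184 (SE, adjusted p = 0.999) without a block and 0.09 ± 0.133 (adjusted p = 0.741) with it, both in edgeR. Within numbers 1, 2 and 3 the differences were −0.32, 0.14 and 0.44, which do not share a direction. Over the alternatives the value ran from −0.056 to 0.29.

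Eomes encodes the T-box factor that defines cortical intermediate progenitors. It lies on chromosome 9, 118478212 to 118486132, plus strand, and overlaps the antisense gene Gm33460, whose reads cannot be told apart from its own since the sources used here do not state whether counting used strand. Eomes had 11, 14 and 10 counts across WT 1 to 3 (0.239, 0.347 and 0.212 CPM), against 3, 4 and 0 across KO 1 to 3 (0.0730, 0.0943 and 0 CPM). All KO libraries were under all WT libraries. Of the 17485 genes with a count, 6.29% had all KO under all WT libraries, and among 1183 genes with 17 to 58 counts in all, the span of the 5 low members, 10.6% did.

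The ratio of summed Eomes counts, KO over WT after scaling, was 0.228 (35 counts against 7, 95% exact binomial interval 0.0854 to 0.521). This interval covers counting error only. Eomes did not pass the filter, so its fold change came from an edgeR fit without one, at −2.13 ± 0.791 (SE, adjusted p = 0.858, unadjusted p = 0.0307) without a block. In the edgeR fit with a block and no filter it was −2.19 ± 0.814 (adjusted p = 0.106). The value was negative in 12 of 12 alternatives, from −2.67 to −1.63, and no adjusted p was below 0.103. These alternatives draw on the same 6 libraries, where all KO lay under all WT values, so the shared sign adds no support. Across these unfiltered fits 0.0458% of genes were called without a block, and 5.95% were called lower in KO with one. None of the 5 low members was called in either fit.

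Neurog2, the main proneural factor of dorsal cortical progenitors, lies on chromosome 3, 127633135 to 127635631, plus strand. It had 2, 1 and 1 counts across WT 1 to 3 (0.0435, 0.0248 and 0.0212 CPM), against 3, 6 and 4 across KO 1 to 3 (0.0730, 0.141 and 0.119 CPM). Every KO library lay above every WT library, as was the case for 3.91% of genes with a count and 2.79% of the 1183 genes of similar count. All 3 WT libraries were under the floor of 3 counts. The ratio of summed counts was 3.70 (4 against 13 counts, interval 1.14 to 15.6), and the log2 fold change without a filter was 1.79 ± 0.717 (SE, adjusted p = 0.923, edgeR). With the block and no filter it was 1.77 ± 1.12 (adjusted p = 0.432, edgeR). Eomes, which acts after Neurog2 in this cascade, and Neurog2 thus had point estimates of opposite sign, neither called.

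Neurod1 and Neurod4 are bHLH differentiation factors that act after the neurogenins. Neurod1 lies on chromosome 2, 79452521 to 79456751, minus strand, overlaps Cerkl and, on the opposite strand, Gm26755, and had 21, 5 and 7 counts across WT 1 to 3, against 11, 7 and 1 across KO 1 to 3. WT 1 supplied 21 of the 33 WT counts, and the KO over WT ratio of 0.656 had an interval of 0.353 to 1.19. Neurod4 lies on chromosome 10, 130268152 to 130280240, minus strand, and had 6, 3 and 4 counts across WT 1 to 3, against 1, 13 and 5 across KO 1 to 3. KO 2 supplied 13 of its 19 KO counts, and the ratio of 1.67 had an interval of 0.780 to 3.67. Both pairs of groups overlapped. The unfiltered edgeR values were −0.62 ± 0.823 for Neurod1 (adjusted p = 0.999) and 0.71 ± 0.842 for Neurod4, and leaving out 1 library turned the sign of each. Neurod1 was 0.22 without WT 1, and Neurod4 was −0.21 without KO 2.

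Tbr1 is the T-box factor of early glutamatergic neurons and lies on chromosome 2, 61802930 to 61814114, plus strand. Tbr1 had 1, 6 and 33 counts across WT 1 to 3 (0.0217, 0.149 and 0.699 CPM), against 3, 3 and 12 across KO 1 to 3 (0.0730, 0.0707 and 0.357 CPM). Libraries numbered 3 were the highest of both groups, and the groups overlapped. Its summed-count ratio was 0.513 (40 against 18 counts, interval 0.277 to 0.915), an interval that leaves out the spread between libraries. The unfiltered log2 fold change was −0.84 ± 1.14 (SE, edgeR), and it was 0.93 without WT 3. Neurog1, on chromosome 13 from 56250478 to 56252163, and Olig3, a bHLH factor of dorsal hindbrain and spinal progenitors on chromosome 10 from 19356533 to 19358604, were below the floor in every library, and no fold was computed for either.

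**Figure D3:**
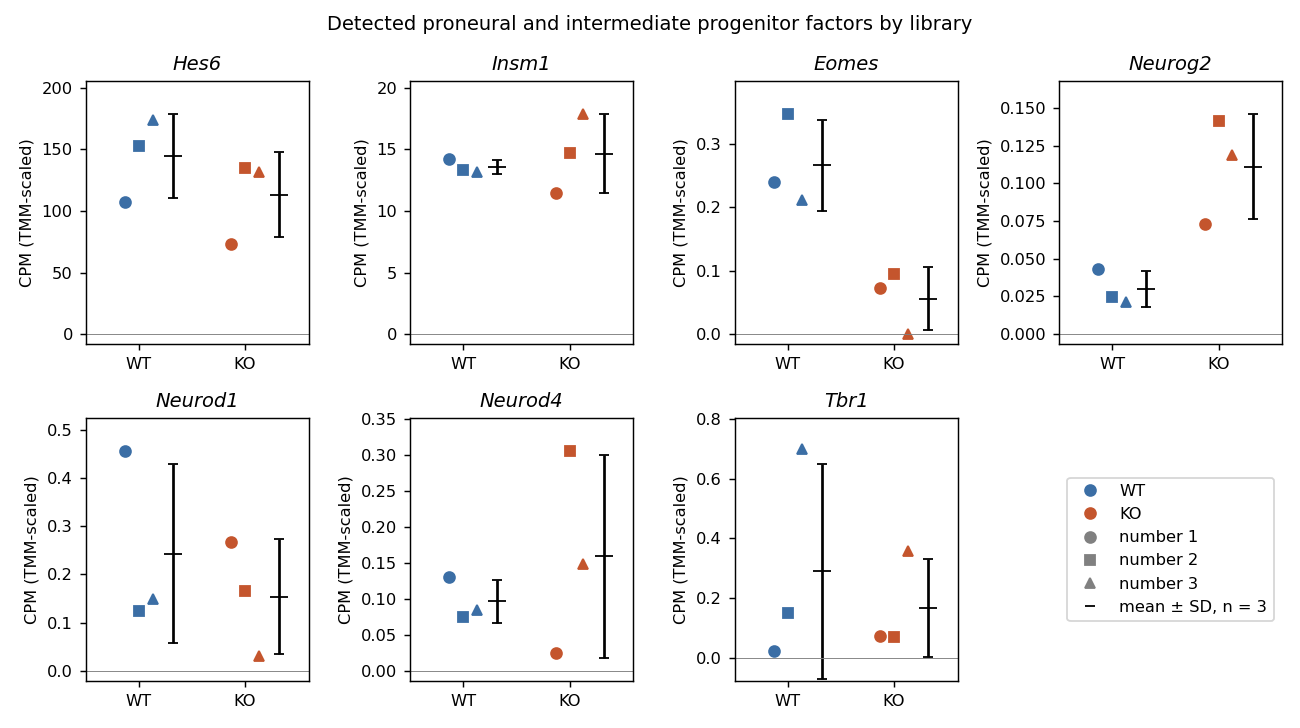
TMM-scaled CPM of the 7 detected members in each library, with 1 panel per gene, each axis on its own linear scale, and mean and SD over 3 libraries for each group. Hes6 and Insm1 are the members above 1 CPM, and in Eomes the KO points lie below the WT points.

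Without Hes6 and Insm1, the 7 remaining members summed to 0.891, 0.719 and 1.17 CPM across WT 1 to 3, against 0.511, 0.778 and 0.654 CPM across KO 1 to 3. The groups overlapped, because KO 2 lay above WT 2. These sums rested on 21 to 55 counts per library.

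Lists of genes around these factors were read with the block. Among 15 other neural bHLH factors, 4 were tested and 0 were called in either direction, and 6 were at 0 in every library. With the block 9.79% of all tested genes were called. Olig1 averaged 2391 ± 354 CPM over WT, against 2042 ± 144 CPM over KO, and Olig2 had 1198 ± 54.7 and 1118 ± 96.5 CPM (SD, n = 3).

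Of 12 partners and inhibitors, all were tested, 2 rose and 1 fell with the block, and 0 of the 12 were called without it. With the block 3.33% of tested genes were called higher and 6.46% lower in KO. Hes5, the Notch-induced repressor, rose by 0.32 ± 0.0687 on the log2 scale (adjusted p = 0.0161, edgeR), and Heyl, another Notch-induced repressor, by 1.40 ± 0.384 (adjusted p = 0.0473, edgeR). Heyl rested on few counts, 4, 13 and 12 across WT 1 to 3 and 13, 30 and 24 across KO 1 to 3. Its groups overlapped, with KO 1 at 0.316 CPM and WT 2 at 0.322 CPM. Id2, which sequesters E proteins, fell by 0.42 ± 0.0689 (adjusted p = 0.00433, edgeR). The list's median was 0.09, beside 0.01 over all tested genes. From numbers 2 and 3 alone 0 rose and 1 fell, as with KO 2 and KO 3 summed, where 490 and 525 of all 13683 tested genes fell.

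The gap between number 1 and the other libraries was much wider in these inhibitors than in Hes6. Hes5 had 18.3, 232 and 255 CPM across WT 1 to 3, against 23.4, 312 and 290 CPM across KO 1 to 3, so the log2 ratio of number 1 to the others was −3.73 in WT and −3.69 in KO. For Id1 these ratios were −3.13 and −3.45, for Id2 −2.57 and −2.36, for Id3 −2.30 and −2.26, and for Hes1 −1.24 and −1.08. The same ratios for Hes6 were −0.60 and −0.86. Such a gap was not confined to the inhibitors. The ratios were −4.86 in WT and −4.10 in KO for the astrocyte gene Gfap. For the neural stem gene Nes they had the other sign, at 1.31 and 1.16. What sets number 1 apart is not given in the labels, and its part in the Hes6 result was not tested beyond the fits above.

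**Figure D4:**
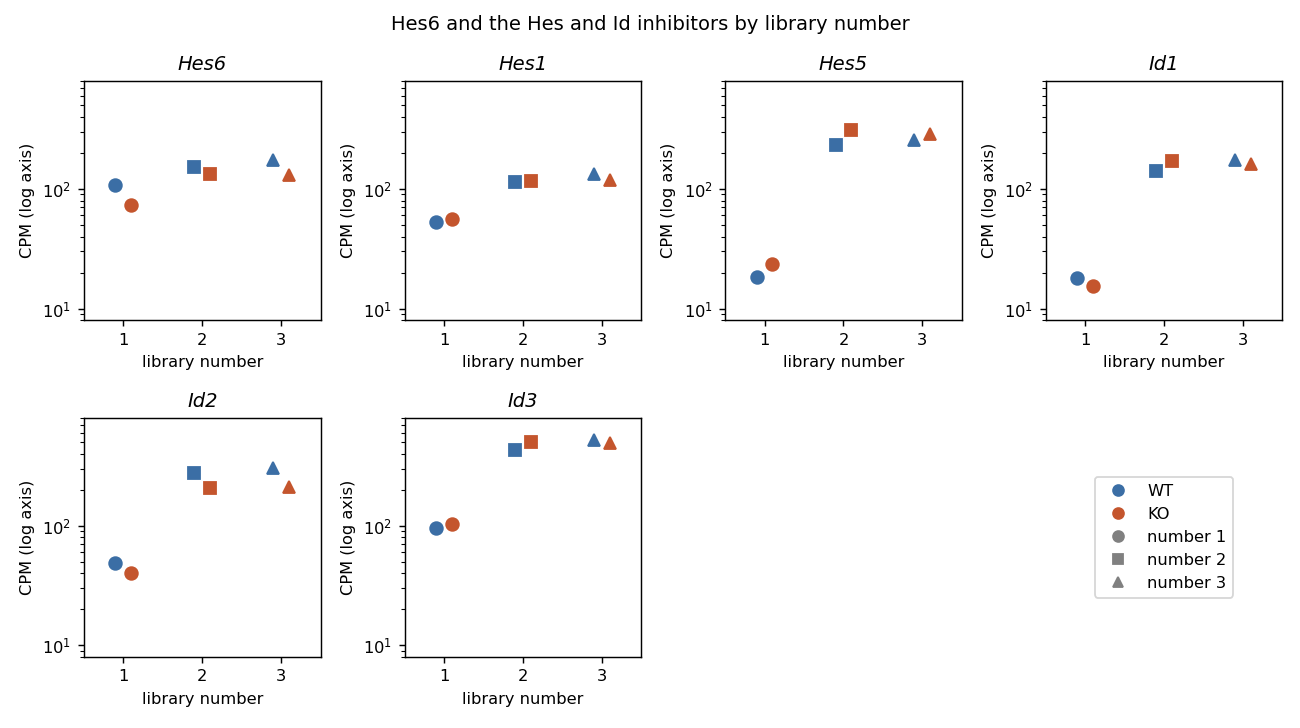
CPM of Hes6 and the bHLH inhibitors in each library, by replicate number (log axis), with WT in blue and KO in orange. Hes5, Id1, Id2 and Id3 lie lowest in WT 1 and KO 1, with log2 ratios to the other libraries of −2.26 to −3.73, against −0.60 and −0.86 for Hes6.

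Of 15 listed targets of proneural factors, 14 were tested, 0 rose and 2 fell with the block, with a list median of −0.05. For this list and the next, the shares over all tested genes were 6.46% lower and 3.33% higher with the block. Nfasc, a cell adhesion protein of axons, fell by 1.06 ± 0.121 (adjusted p = 0.000507, edgeR), and Elavl4, a neuronal RNA-binding protein, by 0.33 ± 0.0794 (adjusted p = 0.0278, edgeR). From numbers 2 and 3 alone 1 of the 14 fell, 1 fell with KO 2 and KO 3 summed, and 0 were called without a block. These reduced fits called 490 and 525 of the 13683 tested genes lower, and 0.0585% were called without a block. Among 11 tested excitatory neuron genes 2 fell with the block, Reln by 1.06 and Cux2 by 0.69 on the log2 scale. In both of the reduced fits 1 of these 11 fell, and without a block 0 were called (Reln adjusted p = 0.999 and Cux2 adjusted p = 0.447, edgeR).

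Some neuron markers were called lower beside Hes6. Of 11 tested neuron genes 0 rose and 4 fell with the block, namely Syt1, Elavl3, Stmn2 and Nefm, and the list's median was −0.46. Stmn2 rested on few counts, 6, 51 and 76 across WT 1 to 3 and 4, 26 and 13 across KO 1 to 3. Among those not called, Tubb3, Dcx and Map2 had log2 fold changes of −0.10, −0.09 and 0.18 with the block. Over all tested genes 6.46% were called lower and 3.33% higher with the block. In numbers 2 and 3 on their own 1 fell, 1 fell with the counts of KO 2 and KO 3 added up, and 0 were called without a block. Of all 13683 tested genes, 490 fell and 251 rose in numbers 2 and 3 alone. With KO 2 and KO 3 summed 525 fell and 158 rose, and without a block 0.0585% were called. The list's summed level was 812 to 1128 CPM over WT, against 867 to 1089 CPM over KO, and none of the 12 was at 0 in every library. Map2 and Gap43, neither called, supplied most of this sum, with WT means of 558 and 267 CPM. The sum therefore says little about the other neuron genes. With the block 2 of 12 neural stem genes fell, Prom1 and Hopx, and that list's median was −0.00077. Pax6 was higher in KO by 0.26 without being called (adjusted p = 0.0553, edgeR with the block). All KO lay above all WT libraries for 1 gene of this list, Pax6, and below them for 4. Over all 13683 tested genes these counts were 614 and 918. Among 8 astrocyte genes 2 rose (Sparcl1 and Aldoc) and 4 fell (Aldh1l1, Gfap, Slc1a2 and Gja1) with the block. The astrocyte calls were 1 higher and 2 lower from numbers 2 and 3 by themselves, 1 higher and 3 lower with KO 2 and KO 3 summed, and 0 without a block. The neural stem list had 2 lower in both reduced fits and had 0 without a block. Their part in the Hes6 result was not tested.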

How the data were processed

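RNA-seq was measured in 3 WT and 3 KO libraries, grouped and numbered by their titles. The deposited values are whole, unnormalized counts, 1 line per symbol. FastQC, cutadapt, Trim Galore, Bowtie2, RSEM and the build mm10 were used, per the submitters' processing notes. Tool versions, the annotation, strandedness and the rounding of RSEM estimates: not given in the sources used here. Members and gene lists were chosen with earlier results of these data known.

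From the counts as deposited, edgeR 4.0.16 in R 4.3.3 was run with filterByExpr (13683 genes kept), TMM scaling, a robust quasi-likelihood fit and two-sided glmQLFTest over all 6 libraries, with Benjamini-Hochberg adjustment over all tested genes and calls at adjusted p under 0.05. Standard errors equal the absolute log2 fold change over the square root of F, and CPM is TMM-scaled. Members under the filter were fitted with no filter other than 1 count. Scripts were tested on simulated data.

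WT and KO share replicate numbers. The correlations of deviations from the group mean over genes were 0.903, 0.684 and 0.646 for pairs 1, 2 and 3, over the limit of 0.1, so the numbers were treated as pairs, from the values and not the labels. WT 2 with KO 3 gave 0.743 and WT 3 with KO 2 gave 0.667, so numbers 2 and 3 are not told apart. Alternatives were the replicate block, number 1 as block, DESeq2 1.42.0, RLE and upper-quartile scaling, no filter, numbers 2 and 3 alone, KO 2 and KO 3 summed, and each library left out. The block with no filter was chosen after seeing the data.

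Exon lengths and gene positions came from GENCODE vM21 on GRCm38, 1-based. RefSeq promoters on GRCm38.p6 matched 8 of 9 members, and Insm1 was not matched. Hes6 and Neurod4 had 2 RefSeq promoters each, and the 1 nearest the most common annotated transcript start was used. The windows of Hes6 and Tbr1 lie inside their annotated gene spans, and those of Neurod1, Olig3 and Neurog2 reach into theirs. Motif matches in member promoters can therefore fall in annotated gene sequence. Named genes were the 9 members, Phf2 and, of each of 12 other lists, up to 4 called with the block by lowest p, or, with fewer than 2 called, the 2 of highest CPM; further list genes were named after their values were seen. 1 further gene is not reported here. Intervals and floors cover counting error only.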

Additional observations from a re-analysis of the deposited data

How the results depend on the processing

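Across all tested genes 8 were called without a block. The count was 1340 with the replicate block, 1445 with number 1 as the block, 262 with DESeq2 without a block, 1268 with DESeq2 and the replicate block, 1661 with the replicate block and no filter, 743 from numbers 2 and 3 by themselves and 688 with the counts of KO 2 and KO 3 added up and number 1 as the block. Leaving out 1 library gave 0 to 21 calls in edgeR, with 21 without WT 1 and 0 without WT 2, WT 3, KO 1, KO 2 or KO 3, where 499 to 864 genes had an unadjusted p under 0.05. Among the members the count was 1, Hes6, with the replicate block in edgeR and DESeq2, with number 1 as the block and with the replicate block and no filter, and it was 0 in the other alternatives. The signs of 4 uncalled members turned when 1 library was left out. Over these 6 fits Neurod1 ran from −1.24 to 0.22, Neurod4 from −0.21 to 1.22, Insm1 from −0.056 to 0.26 and Tbr1 from −1.98 to 0.93. DESeq2 was not run for the members under the filter. The block with no filter was chosen after seeing the data. The cause of these differences was not tested. The 5 low members rested on 4 to 40 counts per group, and of 1183 genes with similar totals 12 (1.01%) were called lower with the replicate block and no filter.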

Other observations

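The genes whose level followed that of Hes6 most closely over the 6 libraries were Nap1l3, Ghdc, Il11ra1, Stom and Tmem151b, with root mean square differences of 0.0553, 0.0672, 0.0677, 0.0699 and 0.0776 between log2 CPM profiles centred on each gene's mean. Of 12312 genes compared, 650 lay within 0.2 of Hes6 on this measure. The 6 points share the gap between number 1 and the other libraries, so these values are a description.

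A list of genes tied to interneurons, a neuron class that arises from ventral progenitors, was read beside the proneural factors. It also holds factors of the ventral progenitors themselves, such as Gsx2, so its calls do not show interneurons. Of 9 listed genes 4 were tested, and with the block 3 rose (3.33% of all tested genes were called higher in KO) and 0 were called without it. The 3 were the homeobox genes Dlx1 and Gsx2 and the GABA-synthesis gene Gad1, which rose by 0.98 ± 0.142, 1.04 ± 0.105 and 0.93 ± 0.153 on the log2 scale (SE, edgeR). Other members pointed the other way without being called or tested. Dlx2 had a log2 fold change of −0.28 (adjusted p = 0.241, edgeR with the block), with every KO under every WT library. Gad2 had 4, 10 and 12 counts across WT 1 to 3 and 0, 1 and 1 across KO 1 to 3, and Nkx2-1 had 1, 1 and 2 against 0 in each KO library. Lhx6, also listed, had 0 counts in all 6 libraries. The list's summed level was 15.3 to 21.4 CPM in WT and 26.1 to 36.0 CPM in KO. Gsx2, 1 of the 3 called, supplied the most on average, with means of 9.83 CPM in WT and 19.5 CPM in KO. The sum therefore says little about the genes not called. From numbers 2 and 3 alone 2 rose, and 3 rose with KO 2 and KO 3 summed, where 251 and 158 of all 13683 tested genes rose.

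Of 7 oligodendrocyte precursor genes, all tested, 2 rose and 2 fell with the block. These counts were 2 and 2 as well from the libraries numbered 2 and 3, and again with KO 2 added to KO 3. Shares over all tested genes were 3.33% higher and 6.46% lower with the block. In the same reduced fits 251 and 158 of the 13683 tested genes rose, and 490 and 525 fell. Bcas1 rose by 1.19 ± 0.0657 and Pdgfra by 0.56 ± 0.0696 on the log2 scale, while Nkx2-2 fell by 1.23 ± 0.0721 and Sox10 by 0.92 ± 0.121 (SE, edgeR). Without a block 1 was called higher, Bcas1, and 1 lower, Nkx2-2, where 0.0585% of all tested genes were called. Of 8 mesenchymal genes 4 were tested, and with the block Twist1 rose (3, 0 and 0 counts across WT 1 to 3, against 28, 32 and 16 across KO 1 to 3) and Col1a2 fell (18, 33 and 47 against 5, 9 and 8), with 0 called without it. The endothelial genes Kdr and Pecam1 and the microglial gene P2ry12, the tested members of their lists, were not called in either fit, with blocked log2 fold changes of 0.09, 0.05 and 0.65.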
